A study of Arabidopsis thaliana with 12 samples.

Results

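The circadian clock genes described here are 10 loci of Arabidopsis thaliana, chosen by name: LHY (AT1G01060), CCA1 (AT2G46830), TOC1 (AT5G61380), PRR5 (AT5G24470), PRR7 (AT5G02810), PRR9 (AT2G46790), GI (AT1G22770), ELF4 (AT2G40080), LUX (AT3G46640) and RVE8 (AT3G09600). They were 10 of the 33602 genes in the count table, and all 10 passed the filter on low counts that left 20617 genes for testing. The study asked whether the Raf-like kinases of the B2 and B3 subgroups are needed for responses to abscisic acid (ABA), a stress hormone of plants. RNA from seedlings was sequenced in 12 libraries, 3 in each of 4 groups: OK100-oct with ABA, wild type with ABA, OK100-oct control and wild-type control. OK100-oct carries null mutations made with CRISPR-Cas9 in RAF11, RAF10, RAF9, RAF8, RAF7, RAF5, RAF4 and RAF3 in the Col-0 accession, which is also the wild type. The labels call the mutant m9, a name that does not by itself set it apart from the line with 1 more mutated gene, and OK100-oct is taken from the study's methods. All 4 groups were whole seedlings labelled as 12 days old, while the methods give a somewhat older age. The dose and duration of ABA for these libraries and the hour of harvest are not given in the sources used here.

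The plant clock is a set of regulators, most of them acting on transcription, that repress one another in a daily sequence. CCA1 and LHY are expressed around dawn and repress evening genes, PRR9, PRR7 and PRR5 follow one another through the day and repress CCA1 and LHY, and TOC1, GI, ELF4 and LUX are expressed towards evening. ELF4 and LUX act with ELF3 in the evening complex, a repressor active at night, and RVE8 is a relative of CCA1 that activates evening genes. The clock also sets the daily timing of many responses to ABA.

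Total counts per library lay between 16632701 and 26661613. Values per gene are given as CPM, the reads on a gene scaled to a common library size by the library total and its TMM factor, a correction for differences in RNA composition. This factor was 0.864 to 0.896 in wild-type ABA libraries against 1.04 to 1.12 in wild-type control libraries. In OK100-oct it was 0.957 to 0.985 with ABA against 1.07 to 1.11 in control. With ABA the genotypes thus differed in this factor without overlap. Among the 8 mutated RAF genes, OK100-oct was lower for 6 with ABA and for 5 without it, and higher for 0. The labelled tissue was checked with 4 markers each of green shoot, root and flower. The summed level of the green shoot markers was 17600 to 19100 CPM in OK100-oct with ABA, 12000 to 13100 in the wild type with ABA, 19800 to 23700 in OK100-oct control and 18200 to 19300 in wild-type control. Root markers summed to 1640 to 1920 CPM in OK100-oct with ABA, 993 to 1150 in the wild type with ABA, 2220 to 2690 in OK100-oct control and 1710 to 1790 in wild-type control. Flower markers summed to at most 4.94 CPM in any library, with AP3 at 0 in 2 libraries and AG at 0 in 1. PYK10 made up most of the root sum in each group, with a lowest group mean of 970 CPM against at most 53.6 for TIP2-3. With ABA in the wild type, 3 of the 4 green shoot markers were lower, and of the root markers 1 was higher and 1 lower. Without ABA, OK100-oct was higher for PYK10 (0.53 on the log2 scale, edgeR adjusted p = 0.0205) and lower for TIP2-3 (-1.19, adjusted p = 0.00365). EXPA7 and PRP3 did not differ there at an adjusted p below 0.05. The part of such differences in the values below was not tested, and in whole seedlings a change in the share of cells and a change in RNA per cell cannot be told apart. OK100-oct control library 1 was the lowest of its group for 9 of the 10 clock genes and for 44 of 56 genes of the clock and its outputs, where 36.8% of all tested genes were lowest in it. Wild-type control library 3 was the highest of its group for 34 of the 56, where 37.8% of all tested genes were highest in it, and for 5 of the 10. On this count OK100-oct control library 2 was alike (31 of the 56, 7 of the 10, 34.2% of all tested genes). So was wild-type ABA library 1 (30 of the 56, 6 of the 10, 31%). By median deviation from the group mean (log2, over the 56), OK100-oct control library 1 (-0.17) and wild-type control library 3 (0.16) stood furthest out. The comparisons below share libraries, so their values are not independent of one another. How many of all tested genes separated without overlap in each comparison was not computed, so such separation below is a description and no test. The labels do not say whether the 3 libraries of a group came from separate cultures, so p-values measure the spread between these libraries, which may be technical.

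The levels of the 10 genes can be compared per kilobase of exon, since longer genes collect more reads. On this scale PRR7 was at 112 to 211 CPM per kb over the 12 libraries, TOC1 at 73.3 to 162, PRR5 at 93.7 to 147 and ELF4 at 49.3 to 165. GI followed at 39.0 to 58.6 and LUX at 24.6 to 40.5 CPM per kb. CCA1 was at 3.27 to 22.9, PRR9 at 3.45 to 14.4, RVE8 at 1.02 to 2.21 and LHY at 0.504 to 1.18 CPM per kb. Neighbours in this order overlapped in range apart from LUX and CCA1, and PRR9 and RVE8. In 12 of the 12 libraries each of the evening genes TOC1, GI, ELF4 and LUX was above both dawn genes per kb, the lowest such ratio being 1.38.

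CCA1 had the largest log2 fold change with ABA among the 10 genes in both genotypes, with PRR9 close to it in OK100-oct (1.05, SE 0.18). CCA1 encodes a MYB factor of the dawn loop and spans chr2:19245591-19248915 on the plus strand of TAIR10.1. It stood at 25.0, 28.5 and 32.8 CPM in OK100-oct with ABA, at 62.3, 60.8 and 41.6 in the wild type with ABA, at 11.4, 14.7 and 13.02 in OK100-oct control and at 12.8, 8.90 and 9.94 in wild-type control. The ABA libraries of each genotype were above all its control libraries, the ABA libraries of OK100-oct were below all those of the wild type, and the control libraries of the genotypes overlapped. The log2 fold change with ABA was 1.14 in OK100-oct (SE 0.17, 2.21-fold, edgeR quasi-likelihood adjusted p = 0.000142) and 2.38 in the wild type (SE 0.18, 5.21-fold, adjusted p = 7.54e-08). The difference between these responses was -1.24 on the log2 scale (95% interval -1.76 to -0.71, adjusted p = 0.00363).

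LHY, the close relative and partner of CCA1, did not pass the test with ABA in either genotype. LHY spans chr1:33365-37871 on the minus strand and was covered by only 31 to 92 reads per library. It stood at 4.04, 3.39 and 3.74 CPM in OK100-oct with ABA, 3.92, 2.85 and 2.25 in the wild type with ABA, 1.91, 2.92 and 2.74 in OK100-oct control and 2.15, 1.72 and 2.64 in wild-type control. ABA libraries were above control libraries without overlap in OK100-oct, and the wild-type groups overlapped. The log2 fold change was 0.57 (95% interval 0.08 to 1.05, edgeR adjusted p = 0.0505) in OK100-oct and 0.47 (-0.05 to 0.99, adjusted p = 0.101) in the wild type. Neither passed the threshold of 0.05, and both calls depended on the libraries used. The OK100-oct value passed in 5 of the 12 fits that left out a library, without OK100-oct control library 2, wild-type ABA library 1 or 3 or wild-type control library 2 or 3 (adjusted p between 0.0371 and 0.0425), and ranged over 0.40 to 0.69 in the 12. The wild-type value passed in 2 of the 12, without wild-type ABA library 3 (0.63, adjusted p = 0.0399) or wild-type control library 3 (0.63, adjusted p = 0.0479), and was lowest, at 0.23, without wild-type ABA library 1. Within a library the number of CCA1 reads per LHY read was 6.18 to 8.75 in OK100-oct with ABA, 15.9 to 21.3 in the wild type with ABA, 4.76 to 5.96 in OK100-oct control and 3.76 to 5.93 in wild-type control. This ratio needs no scaling between libraries, and its ranges with ABA did not overlap between the genotypes or with either control group.

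RVE8, which activates genes of the afternoon and evening, was also low, with 43 to 114 reads per library, and spans chr3:2946239-2949017 on the plus strand. Its levels were 4.19, 4.31 and 4.52 CPM in OK100-oct with ABA, 5.19, 4.69 and 4.61 in the wild type with ABA, 3.07, 4.69 and 3.96 in OK100-oct control and 4.01, 2.39 and 3.07 in wild-type control. The ABA libraries were above the control libraries without overlap in the wild type only. RVE8 rose with ABA in the wild type, by 0.61 on the log2 scale (SE 0.20, edgeR adjusted p = 0.0135), but the call was lost without wild-type control library 2 (0.45, adjusted p = 0.0562) and with library totals in place of TMM factors (0.30, adjusted p = 0.193). In OK100-oct the value was 0.15 (95% interval -0.25 to 0.56, adjusted p = 0.512), and the groups overlapped.

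**Figure D1:**
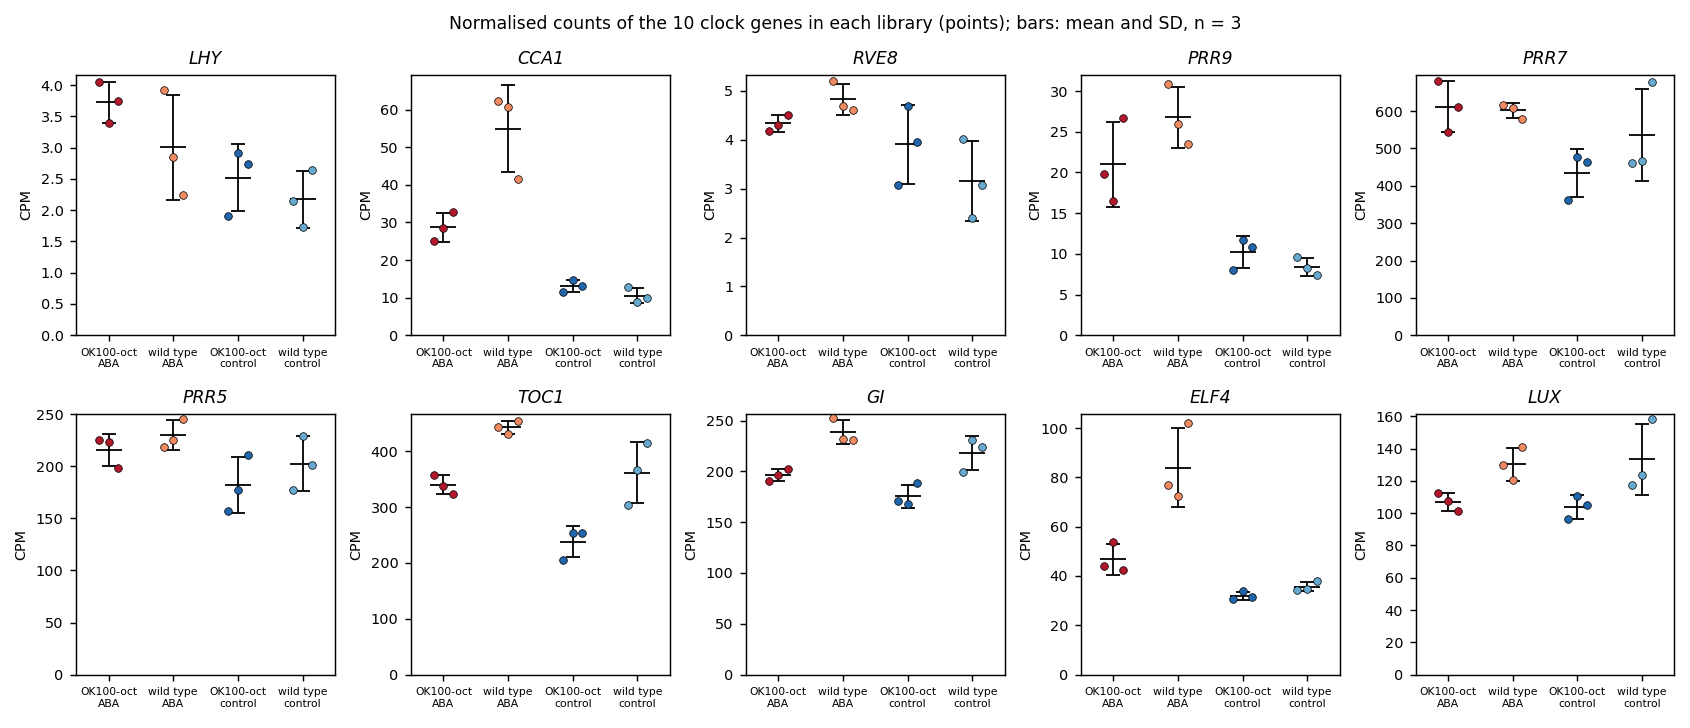
CPM (vertical axes, from 0) of the 10 clock genes in each of the 12 libraries, with 1 panel per gene and 1 column per group. Points are libraries and bars the mean and SD (n = 3), and CCA1, PRR9 and ELF4 show ABA libraries above control libraries in both genotypes, with CCA1 at 25.0 to 32.8 CPM in OK100-oct with ABA against 41.6 to 62.3 in the wild type with ABA.

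Among the pseudo-response regulators, which repress CCA1 and LHY from morning to evening, PRR9, the first to be expressed in the day, had the largest fold changes. PRR9 spans chr2:19232607-19235179 on the plus strand, a short distance before CCA1 on the same chromosome. Its levels were 19.8, 16.5 and 26.7 CPM in OK100-oct with ABA, 30.8, 26.0 and 23.5 in the wild type with ABA, 7.97, 11.8 and 10.9 in OK100-oct control and 9.57, 8.29 and 7.39 in wild-type control. Every ABA library was above every control library, and the genotypes overlapped in both treatments. PRR9 rose with ABA by 1.05 on the log2 scale in OK100-oct (SE 0.18, edgeR adjusted p = 0.000463) and by 1.67 in the wild type (SE 0.19, adjusted p = 4.4e-06). The difference of the responses, -0.62 (95% interval -1.19 to -0.06), had an adjusted p = 0.12, and among the 12 fits that left out a library it passed the threshold in 1, without OK100-oct ABA library 3 (-0.84, adjusted p = 0.0392). PRR9 counts are uncertain, because 41.1% of the 50-base windows of its exons occur elsewhere in the genome, 31.2% in the gene AT2G46670. That copy held 59, 22 and 6 reads in the wild-type ABA libraries and at most 5 in any other library.

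PRR7 spans chr5:637681-642030 and PRR5 chr5:8356204-8358546, both on the minus strand. PRR7 stood at 682, 543 and 611 CPM in OK100-oct with ABA, 617, 608 and 579 in the wild type with ABA, 361, 478 and 462 in OK100-oct control and 460.4, 467 and 677 in wild-type control. PRR7 rose with ABA in OK100-oct by 0.50 on the log2 scale (SE 0.15, edgeR adjusted p = 0.0158), a call lost without OK100-oct ABA library 1 (0.41, adjusted p = 0.0707), without OK100-oct control library 1 (0.38, adjusted p = 0.0733) and with library totals (0.33, adjusted p = 0.063). In the wild type the value was 0.17 (95% interval -0.16 to 0.50, adjusted p = 0.342), where control library 3 was higher than all 3 ABA libraries, and without that library PRR7 passed the threshold at 0.38 (adjusted p = 0.0166). The difference of the responses was 0.33 (95% interval -0.14 to 0.80, adjusted p = 0.32). PRR5 ranged over 198 to 226 CPM in OK100-oct with ABA, 219 to 246 in the wild type with ABA, 157 to 211 in OK100-oct control and 177 to 229 in wild-type control. PRR5 had log2 fold changes with ABA of 0.24 in OK100-oct (edgeR adjusted p = 0.104) and 0.18 in the wild type (adjusted p = 0.192), and its groups overlapped in each comparison.

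ELF4, a small protein of the evening complex, had the largest log2 fold change with ABA of the evening genes in both genotypes. TOC1 was close to it in OK100-oct (0.51, SE 0.12). ELF4 spans chr2:16734294-16734953 on the minus strand. Its levels were 44.0, 53.9 and 42.3 CPM in OK100-oct with ABA, 77.0, 72.4 and 102 in the wild type with ABA, 30.5, 33.8 and 31.6 in OK100-oct control and 34.4, 34.7 and 38.0 in wild-type control. ABA libraries were above control libraries in both genotypes, and both with and without ABA the OK100-oct libraries were below all wild-type libraries. Without ABA the closest libraries of the genotypes stood at 33.8 and 34.4 CPM. There ELF4 was at -0.16 on the log2 scale in OK100-oct against the wild type and did not pass the test (edgeR adjusted p = 0.503). With ABA its log2 fold change was 0.55 in OK100-oct (SE 0.13, 1.46-fold, edgeR adjusted p = 0.00308) and 1.23 in the wild type (SE 0.13, 2.35-fold, adjusted p = 1.88e-06). The responses differed by -0.68 (95% interval -1.07 to -0.30, adjusted p = 0.0186), and this call was lost without OK100-oct ABA library 1 (-0.64, adjusted p = 0.0503) or library 3 (-0.62, adjusted p = 0.0546).

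LUX is the DNA-binding partner of ELF4 in the evening complex. LUX stood at 112, 107 and 101 CPM in OK100-oct with ABA, 129.9, 120.5 and 141 in the wild type with ABA, 96.2, 111 and 105 in OK100-oct control and 118, 124 and 158.5 in wild-type control. Within each genotype the treatments overlapped, and within each treatment the OK100-oct libraries were below all wild-type libraries. The response to ABA was 0.04 on the log2 scale in OK100-oct (95% interval -0.20 to 0.28, edgeR adjusted p = 0.79) and -0.03 in the wild type (-0.27 to 0.21, adjusted p = 0.803). In the wild type it was -0.34 (adjusted p = 0.007) with library totals, which also moved the median of all genes to -0.37. LUX spans chr3:17183042-17186959 on the plus strand, and 17.8% of its exon bases overlap the gene AT3G46650 on the other strand. Whether reads were counted by strand is not given in the sources used here, so reads of the 2 genes may not have been kept apart.

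TOC1, the pseudo-response regulator of the evening, differed between the genotypes in both treatments. TOC1 spans chr5:24674963-24678550 on the plus strand. Its levels were 358, 338 and 324 CPM in OK100-oct with ABA, 443, 431 and 455 in the wild type with ABA, 206, 254 and 254 in OK100-oct control and 304, 367 and 414 in wild-type control. No library of OK100-oct reached the lowest wild-type library of the same treatment. With ABA, TOC1 rose by 0.51 on the log2 scale in OK100-oct (SE 0.12, edgeR adjusted p = 0.00279). In the wild type it was higher by 0.29 (SE 0.12, adjusted p = 0.0406), a call that held in 5 of the 12 fits that left out a library and turned to -0.0091 (adjusted p = 0.941) with library totals. The 7 libraries without which it was lost were OK100-oct ABA 1 and 3, wild-type ABA 1, 2 and 3 and wild-type control 1 and 2, with values between 0.18 and 0.31 and adjusted p between 0.0513 and 0.182.

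GI, a large nuclear protein of the evening that also acts in flowering, did not pass the test with ABA. It spans chr1:8061751-8067790 on the plus strand and stood at 191, 196 and 202 CPM in OK100-oct with ABA, 252, 232 and 231 in the wild type with ABA, 171, 168 and 188 in OK100-oct control and 199, 231 and 224 in wild-type control. The log2 fold change with ABA was 0.16 in OK100-oct (95% interval -0.02 to 0.35, edgeR adjusted p = 0.129) and 0.13 in the wild type (-0.05 to 0.32, adjusted p = 0.19). With library totals this value was -0.01 in OK100-oct and -0.17 in the wild type, and neither passed the threshold. The OK100-oct libraries were below the wild-type libraries in each treatment without overlap.

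Counted together, 5 of the 10 clock genes were higher with ABA in OK100-oct (CCA1, PRR9, ELF4, TOC1 and PRR7) and 0 were lower, where 52% of all tested genes were called, 25.9% higher and 26.1% lower. In the wild type 5 of the 10 were higher (CCA1, PRR9, ELF4, RVE8 and TOC1) and 0 lower, where 68.6% of all tested genes were called, 32.2% higher and 36.4% lower. With directions pooled, the share of the 10 that was called was thus close to that of all genes in OK100-oct and below it in the wild type. With library totals 4 were higher and 0 lower in OK100-oct, and 3 were higher and 1 lower in the wild type, with a median log2 fold change of 0.33 in OK100-oct and 0.08 in the wild type. With TMM factors the median log2 fold change of the 10 was 0.51 in OK100-oct and 0.38 in the wild type, against -0.01 in OK100-oct and -0.06 in the wild type over all tested genes. With a change of at least 3-fold as a further condition, 0 of the 10 were called in OK100-oct, where 5.98% of all tested genes were called and 3.56% were higher. In the wild type 2 were called, CCA1 and PRR9, where 14.3% of all tested genes were called and 7.18% were higher. The difference of the responses passed the threshold for 2 of the 10, CCA1 and ELF4, both with the smaller rise in OK100-oct, where 18.2% of all tested genes were called, 8.62% with a positive and 9.55% with a negative difference. None of the 10 differed by at least 3-fold in response, a size reached by 2.76% of all tested genes, 1.47% with a positive difference. Without the OK100-oct control library 1 and the wild-type control library 3, 5 of the 10 were called with ABA in OK100-oct, 7 in the wild type and 2 for the difference.

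**Figure D2:**
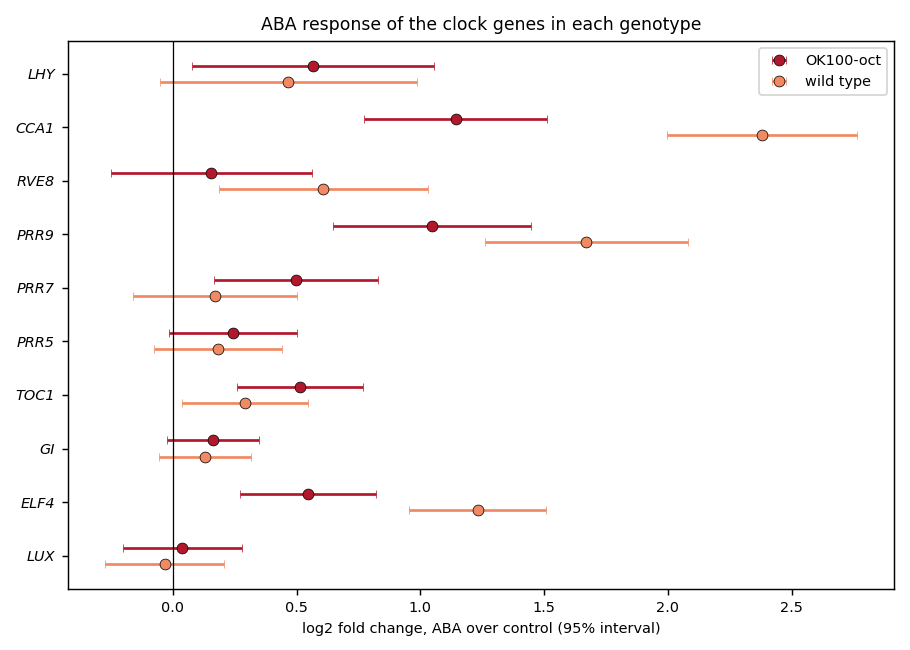
Log2 fold change with ABA over control (horizontal axis) for each of the 10 clock genes, with its 95% interval, in OK100-oct (dark, upper) and the wild type (light, lower). The intervals of the genotypes do not overlap for CCA1 (0.77 to 1.51 in OK100-oct, 2.00 to 2.76 in the wild type) and ELF4 (0.27 to 0.82 in OK100-oct, 0.96 to 1.51 in the wild type), and LUX lies near 0 in both.

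Set against the wild type with ABA present, OK100-oct was lower for 4 of the 10 clock genes and higher for 0, where 42.1% of all tested genes were called, 21.3% higher and 20.7% lower. None of the 10 differed by at least 3-fold, where 4.52% of all tested genes did and 2.63% were higher. CCA1 was at -0.93 on the log2 scale (SE 0.16, edgeR adjusted p = 0.000569) and ELF4 at -0.84 (SE 0.13, adjusted p = 0.000171). TOC1 was at -0.38 (adjusted p = 0.0183) and GI at -0.28 (adjusted p = 0.0181). The calls of CCA1 and ELF4 held in 12 of the 12 fits that left out a library. TOC1 lost its call without OK100-oct ABA library 3 (-0.35, adjusted p = 0.0707), without wild-type ABA library 3 (-0.36, adjusted p = 0.0549) and with library totals (-0.24, adjusted p = 0.0756). GI lost it without OK100-oct ABA library 1 (-0.26, adjusted p = 0.0663), without wild-type ABA library 1 (-0.24, adjusted p = 0.0821) and with library totals (-0.13, adjusted p = 0.172). LUX, at -0.29 (95% interval -0.52 to -0.05), had an adjusted p = 0.0537, and it passed in 3 of the 12 fits that left out a library, those without wild-type control library 1, 2 or 3 (adjusted p = 0.0438, 0.0442 and 0.0115), and in 4 of 8 other alternatives. Values were closer to 0 for PRR7 (0.02), PRR5 (-0.09) and RVE8 (-0.16), while PRR9 was at -0.35 and LHY at 0.30, and none of the 5 passed the threshold. Without OK100-oct ABA library 3, PRR9 passed it at -0.56 (adjusted p = 0.0258).

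In the absence of ABA the genotypes differed in 1 of the 10 clock genes, where 4.87% of all tested genes were called, 2.58% higher and 2.29% lower. None of the 10 differed by at least 3-fold, where 0.495% of all tested genes did and 0.354% were higher. TOC1 was at -0.61 on the log2 scale (SE 0.12, edgeR adjusted p = 0.0129), 1.52-fold lower in OK100-oct. This call held in 12 of the 12 fits that left out a library, and without both control libraries that stood apart it was -0.40 (adjusted p = 0.041). It was lost when only the control libraries were fitted (adjusted p = 0.129). GI was at -0.31 (95% interval -0.50 to -0.13, edgeR adjusted p = 0.0553) and LUX at -0.36 (-0.60 to -0.12, adjusted p = 0.084). Neither passed the threshold. For both the OK100-oct libraries lay below all wild-type libraries, but the share of all tested genes that separated so was not computed. CCA1 was at 0.30 (95% interval -0.08 to 0.69) and LHY at 0.20 (-0.32 to 0.72), with overlapping groups.

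The position of each library between dawn and evening was described by the mean log2 CPM of LHY and CCA1 minus that of TOC1, LUX, ELF4 and GI. This value was -3.75, -3.83 and -3.55 in OK100-oct with ABA, -3.55, -3.71 and -4.35 in the wild type with ABA, -4.43, -4.10 and -4.24 in OK100-oct control and -4.58, -5.14 and -4.91 in wild-type control. All 12 values were negative, and libraries of 1 group lay within 0.286 to 0.8 of one another. The widest spread was in the wild type with ABA, where library 3 lay below the other two. The group mean was -3.71 ± 0.15 in OK100-oct with ABA, -3.87 ± 0.42 in the wild type with ABA, -4.26 ± 0.17 for OK100-oct control and -4.88 ± 0.28 for wild-type control (SD, n = 3 each). The ABA groups were above the control groups of the same genotype by 0.55 in OK100-oct and 1.01 in the wild type, without overlap, and OK100-oct was above the wild type by 0.16 with ABA, with overlap, and by 0.62 without ABA, without overlap. CCA1, ELF4 and TOC1, which were called with ABA, are part of this value, so it is no measure of the hour that is independent of the treatment. TOC1 was also lower in OK100-oct without ABA (-0.61, edgeR adjusted p = 0.0129), so the value is not independent of the genotype either. Since no hour of harvest is given, the treatment or genotype and any difference in harvest hour between the groups cannot be told apart.

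For LHY minus TOC1 alone, the log2 difference was -6.64 to -6.43 in OK100-oct with ABA, -7.66 to -6.82 in the wild type with ABA, -6.75 to -6.44 in OK100-oct control and -7.74 to -7.14 in wild-type control. Here the treatments overlapped within each genotype, and all 6 OK100-oct libraries were above all 6 wild-type libraries. TOC1 was lower in OK100-oct in both treatments, and LHY did not pass the threshold in either, with a spread between libraries of up to 28.1% of the mean.

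**Figure D3:**
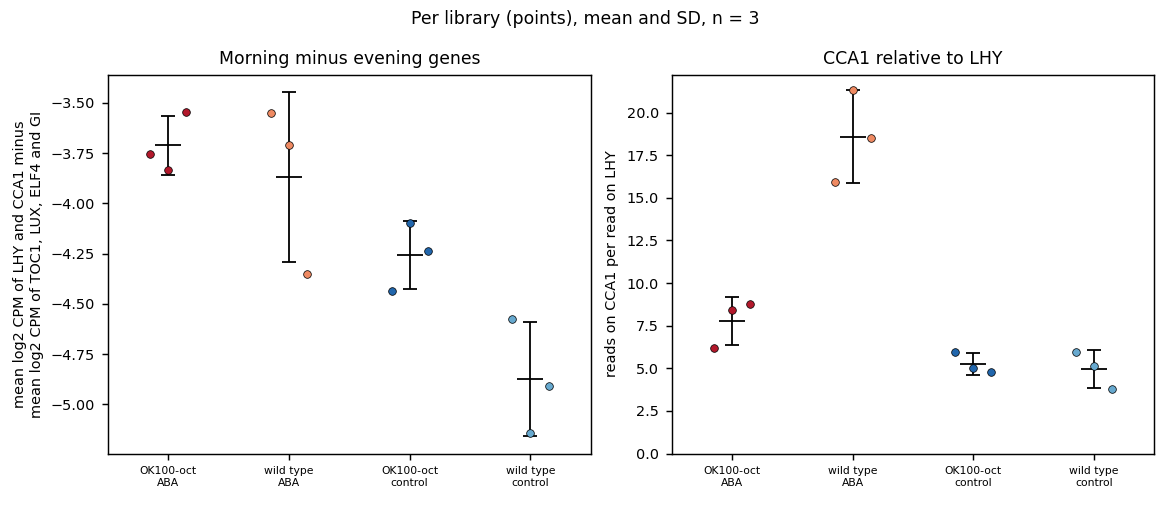
Left, the mean log2 CPM of LHY and CCA1 minus the mean log2 CPM of TOC1, LUX, ELF4 and GI in each library. Right, reads on CCA1 per read on LHY, from 0. Points are libraries and bars the mean and SD (n = 3). All libraries are negative on the left, and on the right the OK100-oct ABA libraries (6.18 to 8.75) stand below the wild-type ABA libraries (15.9 to 21.3) and above both control groups.

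Promoter sequences are shown for CCA1 and PRR9, the genes with the largest fold changes with ABA, for TOC1 and for LHY, the partner of CCA1 that did not pass the test. Each is the 250 bases before the gene's start in the RefSeq genome TAIR10.1, 5′ to 3′ on the gene's strand, with matches in capitals. The motifs searched on both strands were the evening element AAAATATCT, the CCA1 binding site AAAAATCT, the LUX binding site GATTCG or GATACG, the G-box CACGTG and the ABA-responsive element ACGTGGC or ACGTGTC, the last of which overlaps the G-box where CACGTG is followed by GC or TC.
CCA1 promoter (chr2:19245341-19245590, plus strand): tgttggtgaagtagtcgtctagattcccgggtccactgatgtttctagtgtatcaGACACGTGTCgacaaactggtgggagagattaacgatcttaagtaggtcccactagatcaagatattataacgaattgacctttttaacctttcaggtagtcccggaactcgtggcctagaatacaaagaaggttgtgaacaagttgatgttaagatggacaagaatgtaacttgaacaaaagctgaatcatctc
LHY promoter (chr1:37872-38121, minus strand): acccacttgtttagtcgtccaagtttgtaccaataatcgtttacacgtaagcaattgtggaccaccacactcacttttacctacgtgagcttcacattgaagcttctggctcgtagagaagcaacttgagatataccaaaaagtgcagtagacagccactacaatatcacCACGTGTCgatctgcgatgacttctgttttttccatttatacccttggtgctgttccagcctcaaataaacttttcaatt
PRR9 promoter (chr2:19232357-19232606, plus strand): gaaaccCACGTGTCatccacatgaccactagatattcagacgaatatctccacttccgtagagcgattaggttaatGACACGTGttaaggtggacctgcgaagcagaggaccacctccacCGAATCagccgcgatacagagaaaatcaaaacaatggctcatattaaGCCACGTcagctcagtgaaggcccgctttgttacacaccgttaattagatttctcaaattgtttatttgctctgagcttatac
TOC1 promoter (chr5:24674713-24674962, plus strand): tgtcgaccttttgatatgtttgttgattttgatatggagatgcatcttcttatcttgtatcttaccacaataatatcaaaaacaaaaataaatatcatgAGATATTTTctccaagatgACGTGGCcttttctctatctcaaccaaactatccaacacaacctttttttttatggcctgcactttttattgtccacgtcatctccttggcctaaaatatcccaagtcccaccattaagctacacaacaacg

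Over the 1000 bases before the start, searched in 9 of the 10 clock genes (all but ELF4), the ABA-responsive element occurred in 8, against 14% of 27443 promoters of the genome, and was not matched in RVE8. The G-box occurred in 6 of the 9, against 14.8% of promoters. CCA1 and PRR9 held 3 matches of the ABA-responsive element each, TOC1 and PRR5 2 each, and LHY, PRR7, GI and LUX 1 each. The CCA1 matches 195 and 192 bases before the start overlap on opposite strands, as do those of PRR5 at 318 and 313. The evening element occurred in 4 of the 9, TOC1, PRR5, GI and LUX, against 7.2% of promoters, and in neither CCA1 nor LHY. The LUX binding site was found in 6 of the 9, against 39.8% of promoters, and the CCA1 binding site in 3, against 21.1%. These matches describe letters in a window and were not tested.

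A wider list of 46 genes of the clock, its light inputs and its outputs was examined for comparison. With ABA, 29 were higher and 3 lower in OK100-oct, and 24 were higher and 10 lower in the wild type (edgeR, FDR below 0.05), with a median log2 fold change of 0.46 in OK100-oct and 0.48 in the wild type. With library totals the counts were 22 higher and 6 lower in OK100-oct and 19 higher and 16 lower in the wild type. The called genes made up 69.6% of the list in OK100-oct, against 52% of all tested genes, and 73.9% in the wild type, against 68.6%. The subgroups below hold 3 to 9 genes each and are read against the same shares. The relatives of CCA1, RVE1 to RVE7, were all called, with 7 of 7 higher in OK100-oct and 6 of 7 in the wild type, where RVE7 was lower. With library totals 6 of the 7 were higher in OK100-oct and 5 in the wild type. The LNK coactivators, which work with RVE8, were higher for 3 of 4 and lower for 0 in OK100-oct, and in the wild type higher for 2 of 4 and lower for 1, LNK2. Other genes of the evening complex and the PRR family were higher for 2 of 7 and lower for 1 in OK100-oct, and higher for 2 and lower for 3 in the wild type. The F-box photoreceptors ZTL, FKF1 and LKP2, which direct the breakdown of clock proteins, were higher for 3 of 3 in both genotypes, and with library totals for 2 of 3 in OK100-oct and 1 of 3 in the wild type. Other photoreceptors were higher for 3 of 4 in OK100-oct and 2 of 4 in the wild type, and lower for 0. Other clock regulators were higher for 4 of 9 and lower for 1 in OK100-oct, and higher for 2 and lower for 2 in the wild type. Morning-phased outputs were higher for 7 of 9 and lower for 0 in OK100-oct, and higher for 6 and lower for 1 in the wild type. Evening-phased outputs were higher for 0 of 3 and lower for 1, GRP8, in OK100-oct, and in the wild type higher for 1, CAT3, and lower for 2, GRP7 and GRP8. The differences between these subgroups were not tested. LNK2, GRP7, GRP8 and CAT3 were named after their values were seen.

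RVE3, a MYB factor of the RVE8 clade, had the largest change of this list. RVE3 stood at 6.18, 6.87 and 7.08 CPM in OK100-oct with ABA, 24.7, 19.8 and 14.2 in the wild type with ABA, 0.749, 1.27 and 0.857 in OK100-oct control and 1.20, 0.723 and 0.768 in wild-type control. ABA libraries were far above control libraries, and those of OK100-oct below those of the wild type. Its log2 fold change with ABA was 2.81 (SE 0.25) in OK100-oct and 4.44 (SE 0.25) in the wild type, and the difference was -1.63 (edgeR adjusted p = 0.0111). EFL1, a relative of ELF4, had 5 to 85 reads per library and log2 fold changes of 1.63 in OK100-oct and 2.51 in the wild type, while their difference, -0.88, had an adjusted p = 0.231. LNK1 rose by 1.07 in OK100-oct and 1.62 in the wild type, and the Dof factor CDF5 by 1.31 in OK100-oct and 1.60 in the wild type. RVE1 rose by 1.54 in OK100-oct and 1.49 in the wild type, and the CONSTANS-like gene COL1 by 1.10 in OK100-oct and 1.495 in the wild type. RVE1, RVE3, RVE5, LNK1, LNK2, LNK3, LNK4, EFL1, ELF3, FKF1, LKP2, LWD2, CDF5, COL1, COL2, CAT2 and BOA overlap another annotated gene. Whether these neighbours lie on the other strand or share exons is not given here, so the counts may carry a doubt like that of LUX.

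Lower with ABA in both genotypes was CHE, a TCP factor known to bind the CCA1 promoter. CHE stood at 12.0, 9.78 and 14.8 CPM in OK100-oct with ABA, 5.24, 7.75 and 6.59 in the wild type with ABA, 23.8, 19.4 and 23.3 in OK100-oct control and 24.4, 26.3 and 21.4 in wild-type control. The ABA libraries were below all control libraries, and the wild type fell further than OK100-oct, with log2 fold changes of -0.86 (SE 0.16) in OK100-oct and -1.88 (SE 0.17) in the wild type and a difference of 1.02 (edgeR adjusted p = 0.00805). COL2 fell with ABA in the wild type, by 1.17 on the log2 scale, and was at 0.02 in OK100-oct, a difference of 1.19 (adjusted p = 0.012).

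Between the genotypes with ABA, 7 of the 46 genes were higher in OK100-oct and 12 lower, and with library totals 13 were higher and 7 lower. The 19 called are 41.3% of the list, near the 42.1% of all tested genes called in this comparison. For the difference of responses 7 of the 46 were positive and 4 negative, or 23.9% of the list against 18.2% of all tested genes. EFL1 was at -1.77 and RVE3 at -1.55 on the log2 scale, and COL2 at 1.13, EFL3 at 0.97 and CHE at 0.91. Without ABA, 1 of the 46 was called, the LUX homologue BOA, at -0.80 (edgeR adjusted p = 0.0304), named here after its values were seen. Its groups overlapped, and the call was lost without OK100-oct control library 1 or 3 or wild-type control library 3, with values of -0.65, -0.80 and -0.58 in those fits, when only the control libraries were fitted, and without both control libraries that stood apart (-0.43, adjusted p = 0.172).

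**Figure D4:**
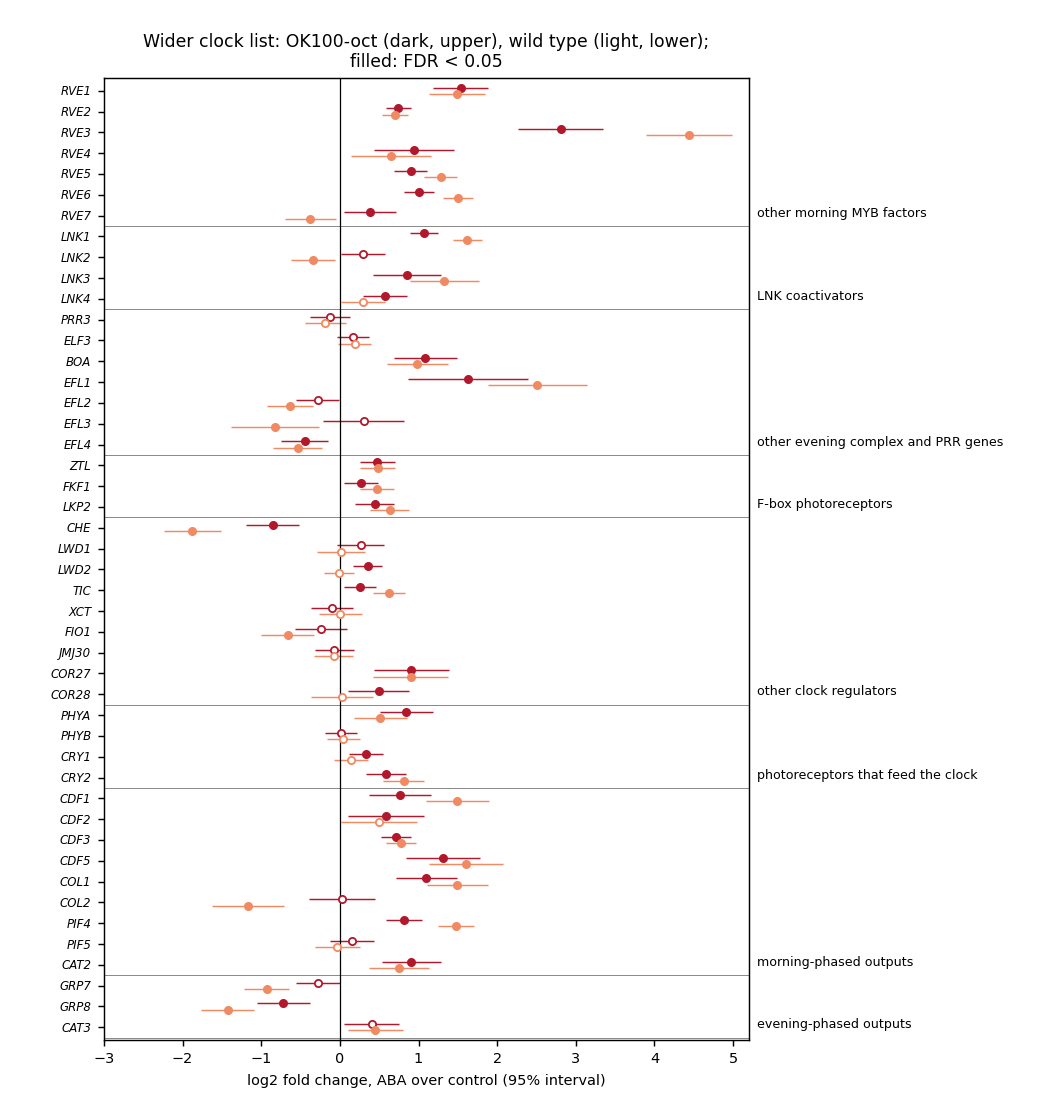
Log2 fold change with ABA over control (horizontal axis, with 95% intervals) for the 46 genes of the wider list in OK100-oct (dark, upper) and the wild type (light, lower), grouped by role. Filled points passed an FDR below 0.05, and RVE3 (2.81 in OK100-oct, 4.44 in the wild type) and CHE (-0.86 in OK100-oct, -1.88 in the wild type) mark the ends of the range in both genotypes.

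The genes whose pattern was most like that of LHY and TOC1 were looked up among 12154 genes averaging 10 CPM or more, by Pearson correlation of log2 CPM over the 12 libraries. For LHY these were PCK2 (0.93), AT2G30150 (0.919), PPOX (0.918), AT5G43830 (0.916) and AT5G13770 (0.895). For TOC1 they were TCTP (0.977), BPM2 (0.974), AT3G06620 (0.972), AT5G62950 (0.969) and AT5G01160 (0.968), of which AT3G06620 is 1 of the RAF genes mutated in OK100-oct. The 12 points fall into 4 groups and share the same scaling, so these coefficients describe the libraries and carry no test.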

How the data were processed

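RNA of 12 seedling libraries was sequenced. The authors deposited raw read counts per gene, and the submitters' processing notes name Trimmomatic 0.36, HISAT2 2.1.0, HTSeq 0.9.1 and TAIR10. The strand setting and annotation release are not given in the sources used here, and the labels and the methods name different library kits.

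Counts were tested in edgeR 4.0.16 (quasi-likelihood F test, TMM factors, filterByExpr; limma 3.58.1, R 4.3.3) in 1 fit of all 4 groups, with Benjamini-Hochberg adjustment over 20617 genes and a threshold of 0.05. Adjusted p-values in the text come from that fit unless a setting is named. Standard errors were derived from the F statistic and 95% intervals from its total degrees of freedom, residual and prior together. The scripts were tested on simulated data. Alternatives were DESeq2 1.42.0 (Wald test and size factors), library totals, count filters, a 3-fold condition, a replicate block, fits of only the groups compared and leaving out each library. Leaving out both control libraries that stood apart was added after seeing the data.

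The members and lists were chosen with earlier results of these data known. Named were all 10 members, for each comparison at most 5 wider-list genes with the largest change among those called without overlap in CPM, and the 5 genes most like LHY and TOC1 in log2 CPM (prior count 2). For the difference of responses, overlap was judged on log2 ratios of ABA to control libraries with the same replicate number. The labels do not state that these numbers pair libraries. LNK1 in the difference of responses, LNK2, GRP7, GRP8, CAT3 and BOA were named after their values were seen. Sequences came from RefSeq TAIR10.1 with Python 3.11.15, pandas 2.3.3 and matplotlib 3.10.9. No protein sequence was used here, and 1 upstream sequence is not reported here.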

Additional observations from a re-analysis of the deposited data

Results flagged for a closer look

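The response to ABA differed between OK100-oct and the wild type, by the test of the difference itself (edgeR interaction term, OK100-oct minus wild type, log2 scale), for 2 of the 10 clock genes. CCA1 differed by -1.24 (adjusted p = 0.00363) and ELF4 by -0.68 (adjusted p = 0.0186), each with the smaller rise in OK100-oct.

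Among the wider list, RVE3 differed by -1.63 (adjusted p = 0.0111) and LNK1 by -0.55 (adjusted p = 0.00552), again with the smaller rise in OK100-oct. For CHE the difference was 1.02 (adjusted p = 0.00805), with the smaller fall in OK100-oct. COL2 differed by 1.19 (adjusted p = 0.012), where it fell in the wild type and was at 0.02 in OK100-oct. RVE7 differed by 0.76 (adjusted p = 0.027), at 0.38 in OK100-oct and -0.38 in the wild type. EFL3 differed by 1.13 (adjusted p = 0.0404), at 0.30 in OK100-oct and -0.83 in the wild type.

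EFL3 passed the threshold in 3 of the 12 fits that left out a library and RVE7 in 8 of them, with adjusted p of at most 0.102 for EFL3 and 0.0744 for RVE7. The calls of CCA1, RVE3, LNK1, CHE and COL2 held in all 12 of these fits. Groups had only 3 libraries each, which limits what these fits can show about a single outlying library.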

How the results depend on the processing

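Of 990 fold changes of the 10 clock genes under alternatives, 940 kept their direction and their side of the threshold, 27 newly passed it, 22 lost it and 1 reversed, TOC1 with ABA in the wild type with library totals (-0.0091, adjusted p = 0.941). Of 431 values for named genes of the wider list, 411 kept theirs and 20 lost the call. With library totals OK100-oct against the wild type gave 2 called clock genes with ABA and 2 in control. DESeq2's Wald test gave 2 in control, and fitting only the groups compared gave 0 in control. A further 3-fold condition left 0 with ABA in OK100-oct, 2 with ABA in the wild type, 0 between the genotypes in either treatment and 0 for the difference of responses. Leaving out 1 library gave 4 to 6 called genes with ABA in OK100-oct, 3 to 7 with ABA in the wild type (3 without wild-type control library 2, 7 without wild-type control library 3), 3 to 5 between genotypes with ABA, 1 to 3 in control (3 without wild-type control library 1) and 1 to 2 for the difference of responses (1 without OK100-oct ABA library 1). Without GI among the evening genes the mean morning-minus-evening value was -3.53 in OK100-oct with ABA (-3.71 with GI) and -4.02 in OK100-oct control (-4.26). It was -3.74 in the wild type with ABA (-3.87 with GI) and -4.66 in wild-type control (-4.88). Over all genes, OK100-oct against wild-type control gave 1004 calls, 626 with the replicate block, 1574 with DESeq2's Wald test, 111 with only the groups compared and 344 to 1748 without 1 library, and the difference of responses gave 3747 calls against 6401 without both control libraries that stood apart. Library totals moved the median log2 fold change of all genes with ABA from -0.01 to -0.18 in OK100-oct and from -0.06 to -0.37 in the wild type. The calls with library totals were 3640 higher and 7722 lower with ABA in OK100-oct (5348 and 5372 with TMM factors), 4242 and 10516 in the wild type (6636 and 7500), 6336 and 2799 between genotypes with ABA (4399 and 4276) and 3027 and 1377 for the difference of responses (1778 and 1969). The cause of these changes was not tested. With the replicate number as a block the counts of called clock genes stayed at 5, 5, 1, 4 and 2 in the 5 comparisons, and the call was lost for EFL3, difference of the ABA responses (adjusted p = 0.0642). Libraries of the same number did not deviate together (correlations from -0.376 to 0.274 over the 4 comparisons), so the numbers were not taken as pairs in the main fit. Fitting only the groups compared was not run for the difference of responses, which uses all 4 groups, and EFL1 was not tested with at least 10 counts in every library. LHY and RVE8, at 31 to 114 reads per library, are limited by depth.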
